A study of Mus musculus with 2 samples.

Results

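The chemokine genes of hepatocytes are described here in control and in senescent AML12 cells, a mouse hepatocyte line. The 10 genes are Ccl2, Ccl7, Ccl20, Cxcl1, Cxcl2, Cxcl5, Cxcl10, Cxcl12, Cxcl16 and Cx3cl1. They were chosen by name, with earlier results of these data known. All 10 were found by their GENCODE M21 symbols among the 35275 genes of the count table. RNAseq was performed on 1 library per condition. The control, labelled Young, was untreated, and the senescent cells, labelled Old, were exposed to hydrogen peroxide on 6 days, the first exposure at 1 mM and all later ones at 750 μM, each lasting 1 h and followed by 23 h without peroxide. The labels give both groups the same origin, the liver of a male CD-1 mouse of 3 months, and the line was derived from mice that carry a transgene for transforming growth factor alpha. RNA of 3 samples per condition was pooled before sequencing, and AML12 is a single established line, so the comparison is between 2 libraries. No p-value was computed. The errors given here cover counting of reads only, and PCR copies counted without molecular identifiers do not stand for independent molecules.

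Chemokines are small secreted proteins that bind G protein-coupled receptors on leukocytes and direct their migration. In the liver, injured hepatocytes and other cells secrete them, and the ligands Ccl2, Cxcl1 and Cxcl2 are known for drawing monocytes and neutrophils into the tissue. Many chemokine genes are rapid targets of NF-κB, and chemokines are often listed among the factors that senescent cells secrete. The genes are named after the spacing of their first cysteines, as CC, CXC or CX3C ligands. The question here was which chemokine mRNAs were higher or lower in the peroxide-treated cells.

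Chemokine mRNA was lower in the senescent library for most of the genes that could be measured. The 10 genes together held 29738 control reads and 4005 senescent reads. After scaling by edgeR's TMM method, which adjusts for library size and composition, the sums were 1023 and 161 CPM (read counts relative to the scaled library size), a 6.33-fold lower level (log2 ratio -2.66, 95% interval -2.71 to -2.62). Ccl2 held 78.7% of the control sum and 73.0% of the senescent sum. Without Ccl2 the sum went from 218 to 43.7 CPM (log2 ratio -2.32, interval -2.42 to -2.23), so the lower sum did not rest on that gene alone. Since whole cultures were sequenced, fewer cells with a chemokine mRNA and less of it per cell cannot be told apart.

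To be tested, a gene needed at least 10 reads in the 2 libraries together. It was then called higher or lower if its log2 ratio of senescent over control was past 1.5 and its 95% Clopper-Pearson interval did not include 0. Of the 10 genes, 9 had at least 10 reads and Cxcl12 did not. Ccl2, Ccl7, Ccl20, Cxcl1, Cxcl2, Cxcl5 and Cxcl16 were lower past the threshold, which makes 7 of 9, where 5.60% of all 14383 genes tested were lower. None of the 9 was higher, where 2.71% of all genes tested were. In either direction together, 8.31% of all genes tested passed the threshold. Since the genes and the threshold were chosen with earlier results of these data known, these shares are a description only. The remaining pair, Cxcl10 and Cx3cl1, lay below 0 without passing the threshold. The median log2 ratio of the 9 genes was -2.45, and that of all genes tested was -0.02.

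**Figure D1:**
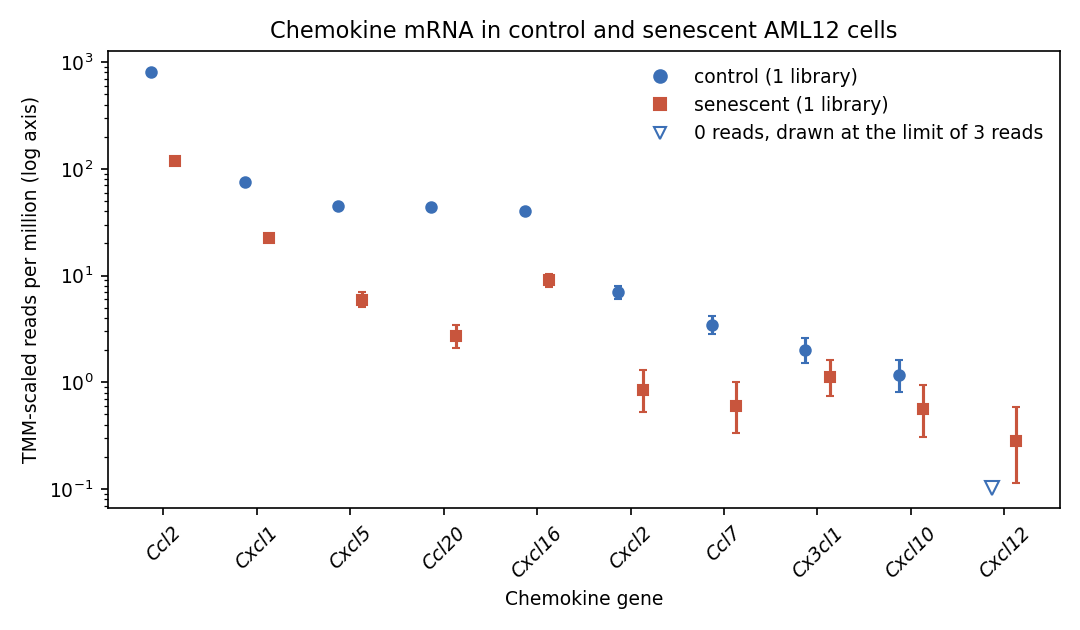
TMM-scaled CPM (log axis) of the 10 chemokine genes in the control library (blue circles) and the senescent library (red squares), with exact Poisson 95% intervals that cover counting error only. The control point is above the senescent point for all 9 genes with at least 10 reads. The open triangle marks Cxcl12, with 0 control reads, at the floor of 3 reads.

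The sequence before the start of these genes was examined because chemokine genes are classical NF-κB targets. RefSeq promoters of GRCm38.p6 were used for 6 of the 10 genes, and those of Ccl2, Ccl7, Cxcl5 and Cxcl16 were not used here. In the 250 bases before the start, matches were searched on both strands for 4 motifs. The NF-κB motif was GGGA and CC with 4 free bases between them, the AP-1 motif was TGANTCA, the interferon-stimulated response element was TTTC and TTTC with 2 free bases between them, and the C/EBP motif was TTGC and AA with 2 free bases between them. The windows below run from base 230 to base 31 before the start, on the strand of the gene, and capitals mark every match to one of the motifs. They are shown for Ccl20, Cxcl1, Cxcl2 and Cxcl10, which hold an NF-κB match, and for Cxcl12, which holds none. Cxcl12 had 0 and 7 reads, too few to be tested. Cx3cl1, with a log2 ratio of -0.80, holds none either, and its window is not shown. Ccl2, Ccl7, Cxcl5 and Cxcl16, without a promoter here, were all lower past the threshold. Whether a match goes with a lower ratio was not tested. The windows lie at chr1:83116536-83116735 for Ccl20, at chr5:90891015-90891214 for Cxcl1, at chr5:90903669-90903868 for Cxcl2, on the minus strand at chr5:92348920-92349119 for Cxcl10 and at chr6:117168305-117168504 for Cxcl12.
Ccl20: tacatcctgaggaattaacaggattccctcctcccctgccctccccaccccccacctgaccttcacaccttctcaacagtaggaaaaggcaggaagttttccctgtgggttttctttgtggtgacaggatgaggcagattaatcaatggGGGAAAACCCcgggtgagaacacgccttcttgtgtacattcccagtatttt
Cxcl1: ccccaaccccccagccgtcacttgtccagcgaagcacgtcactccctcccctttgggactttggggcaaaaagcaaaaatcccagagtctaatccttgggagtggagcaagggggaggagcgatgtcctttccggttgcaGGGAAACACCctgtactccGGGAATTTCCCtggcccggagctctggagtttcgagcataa
Cxcl2: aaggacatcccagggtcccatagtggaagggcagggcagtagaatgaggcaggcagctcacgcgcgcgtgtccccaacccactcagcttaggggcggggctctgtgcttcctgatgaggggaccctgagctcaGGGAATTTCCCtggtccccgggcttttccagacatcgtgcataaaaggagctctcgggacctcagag
Cxcl10: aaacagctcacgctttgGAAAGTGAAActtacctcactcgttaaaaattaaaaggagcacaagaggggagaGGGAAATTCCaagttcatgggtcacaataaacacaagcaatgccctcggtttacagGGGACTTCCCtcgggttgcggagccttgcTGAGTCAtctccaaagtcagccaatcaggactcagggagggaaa
Cxcl12: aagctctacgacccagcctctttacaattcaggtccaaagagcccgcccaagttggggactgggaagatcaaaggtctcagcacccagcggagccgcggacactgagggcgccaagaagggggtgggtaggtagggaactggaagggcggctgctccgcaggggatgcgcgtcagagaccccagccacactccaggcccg
An NF-κB match was present in 4 of the 6 promoters, and in 17.6% of all 32851 promoters of the same length in the reference table. Cxcl1 and Cxcl2 hold the same run of 11 bases, GGGAATTTCCC, in which matches on both strands overlap. It starts 71 bases before the start of Cxcl1 and 97 bases before that of Cxcl2. Cxcl1 has a further match, GGGAAACACC, starting 90 bases before the start. Ccl20 has GGGAAAACCC, starting 81 bases before the start. Cxcl10 has NF-κB matches starting 159 and 103 bases before the start, GGGAAATTCC and GGGACTTCCC. It also has the single match of the 6 promoters to the interferon-stimulated response element, GAAAGTGAAA, and the single AP-1 match, TGAGTCA. These motifs occur in 2.98% and 6.75% of all promoters. The C/EBP motif, in 9.56% of all promoters, was found in none of the 6, and the promoters of Cxcl12 and Cx3cl1 held no match to any motif. For Cx3cl1 the RefSeq start lies 171 bases downstream of the GENCODE gene start, so another window would be searched with that annotation.

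The ligands of the receptor CCR2 in this group, which recruit monocytes, are Ccl2 and Ccl7. Ccl2 (ENSMUSG00000035385) lies on chromosome 11 from 82035571 to 82037453 of GRCm38. Its reads numbered 23389 in control and 2922 in senescent cells, or 804 and 118 CPM. By this level it stood at rank 123 of all genes in the control and at rank 2077 in the senescent library. Its log2 ratio was -2.77 (interval -2.83 to -2.72), a 6.82-fold lower level. Ccl7 (ENSMUSG00000035373) lies next to it, from 82045712 to 82047525. It had 101 control and 15 senescent reads, which is 3.47 and 0.605 CPM. The log2 ratio of Ccl7 was -2.45 (-3.41 to -1.73), and this interval holds the ratio of Ccl2. Both of these CCR2 ligands were thus lower past the threshold, with intervals that overlapped.

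Ccl20 (ENSMUSG00000026166, chromosome 1 from 83116766 to 83119167) is the ligand of CCR6, a receptor of dendritic cells and lymphocytes. It had 1270 control reads and 67 senescent reads, or 43.7 and 2.70 CPM. Among the 9 genes it had the lowest log2 ratio, -4.00 (-4.39 to -3.66), a 16.0-fold lower level. Only 31 of the 14383 genes tested had a lower ratio. The interval of Ccl20 did not overlap that of any other of the 9 genes except Cxcl2.

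Cxcl1, Cxcl2 and Cxcl5 are the neutrophil-attracting CXC ligands of the receptor CXCR2 in this group. Cxcl1 (ENSMUSG00000029380, chromosome 5 from 90891241 to 90893115) had 2190 control and 559 senescent reads, or 75.3 and 22.5 CPM. Its log2 ratio of -1.74 (-1.88 to -1.61) was the closest to the threshold of the genes that passed it. Cxcl5 (ENSMUSG00000029371, chromosome 5 from 90759360 to 90761624) had 1318 and 148 reads, or 45.3 and 5.97 CPM. Cxcl5 was 7.55-fold lower (-2.92, interval -3.18 to -2.68). Cxcl2 (ENSMUSG00000058427, chromosome 5 from 90903871 to 90905938) had 203 and 21 reads, or 6.98 and 0.847 CPM, and was 7.94-fold lower (-2.99, interval -3.77 to -2.39). The interval of Cxcl1 overlapped neither that of Cxcl5 nor that of Cxcl2, while the intervals of Cxcl5 and Cxcl2 overlapped. Within this group, then, Cxcl1 was lower by less than the other two, and the difference exceeded the counting error. Cxcl1 and Cxcl2 are the genes whose promoters, shown above, hold the same run of 11 bases. Cxcl2 shares a stretch of 116 bases at 98.3% identity with its paralog Cxcl3, and how the counting divided reads between these paralogs is not known.

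Cxcl10 is the interferon-induced ligand of CXCR3 on T cells (ENSMUSG00000034855, chromosome 5 from 92346638 to 92348889). It had only 34 control and 14 senescent reads, or 1.17 and 0.564 CPM. It was 2.01-fold lower, with a wide interval of -2.06 to -0.11 on the log2 scale. This interval lay below 0 and reached past the threshold. It overlapped those of Ccl7, Cxcl1 and Cxcl16 and lay above those of Ccl2, Ccl20, Cxcl2 and Cxcl5. Cxcl10 shares 133 exonic bases with Art3 on the opposite strand, which had 0 reads in both libraries.

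Cxcl16 and Cx3cl1 differ from the other ligands in being made as membrane proteins with a chemokine domain on a stalk, from which proteases such as ADAM10 and ADAM17 release them. Cxcl16 (ENSMUSG00000018920, chromosome 11 from 70453983 to 70459984), the ligand of CXCR6, had 1175 control and 224 senescent reads. This was 40.4 and 9.03 CPM, a log2 ratio of -2.16 (-2.37 to -1.95). Cxcl16 shares 552 exonic bases with Zmynd15 on the opposite strand, and the use of strand is not given in the sources used here, so reads of the overlap cannot be told apart. Zmynd15 itself had 117 control and 13 senescent reads. Cx3cl1 (ENSMUSG00000031778, chromosome 8 from 94772009 to 94782427), the ligand of CX3CR1, had 58 and 28 reads, or 1.99 and 1.13 CPM. Its log2 ratio of -0.80 (-1.53 to -0.15) did not pass the threshold. The intervals of these membrane-bound ligands did not overlap, with Cxcl16 the lower.

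Cxcl12 (ENSMUSG00000061353, chromosome 6 from 117168535 to 117181367), the ligand of CXCR4 and ACKR3 that stromal cells typically secrete, stood apart in direction. It had 0 reads in the control, where the exact Poisson interval reaches up to 0.127 CPM, and 7 reads in the senescent library, 0.282 CPM. Against the floor of 3 control reads, 0.103 CPM, the senescent level was 2.74-fold higher. This is not a lower bound, since the Clopper-Pearson interval of the log2 ratio reached down to 0.757. With fewer than 10 reads Cxcl12 was not counted, and 7 reads give little weight to the difference.

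**Figure D2:**
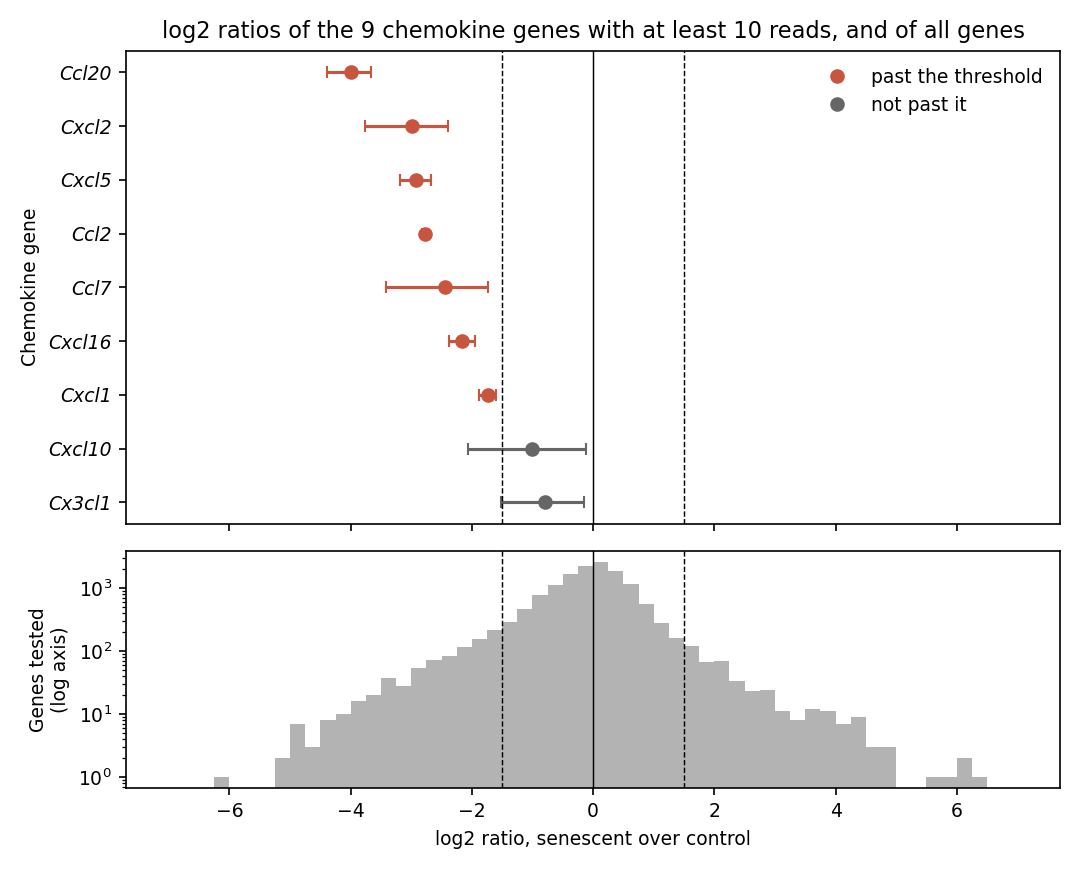
Upper panel, log2 ratio of senescent over control for the 9 chemokine genes with at least 10 reads, with 95% Clopper-Pearson intervals. Lower panel, number of genes tested (log axis) by log2 ratio. Dashed lines mark the threshold of 1.5 in either direction. The 7 genes in red lie between -4.00 and -1.74, and Cxcl10 and Cx3cl1 in grey lie between the threshold and 0.

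Levels of different genes were compared as TMM-scaled CPM per kilobase of exon (RPKM). The length is the union of annotated exons, retained introns included. For Cxcl1 it was 1875 bases, against 953 in the longest protein-coding transcript, and for Cxcl10 it was 2252 against 1353. The order of genes with close levels therefore depends on the length used. In the control the order was Ccl2 at an RPKM of 707, Cxcl1 at 40.2, Ccl20 at 30.7, Cxcl5 at 24.3, Cxcl16 at 13.4, Ccl7 at 4.34, Cxcl2 at 3.38, Cxcl10 at 0.519, Cx3cl1 at 0.508 and Cxcl12 at 0. Only Ccl7 and Cxcl2, and Cxcl10 and Cx3cl1, were neighbours whose Poisson intervals overlapped. In the senescent library Ccl2 had an RPKM of 104, Cxcl1 12.0, Cxcl5 3.20, Cxcl16 2.99, Ccl20 1.90, Ccl7 0.755, Cxcl2 0.409, Cx3cl1 0.287, Cxcl10 0.251 and Cxcl12 0.0345. There the intervals overlapped between Cxcl5 and Cxcl16, Ccl7 and Cxcl2, Cxcl2 and Cx3cl1, and Cx3cl1 and Cxcl10. Ccl2 and Cxcl1 were thus the highest of these 10 genes in both libraries. Ccl20 moved from the third to the fifth place.

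Many of these genes lie in clusters. The CXC cluster on chromosome 5 spans 147 kb from Cxcl5 to Cxcl2 and also holds Ppbp, Pf4, Cxcl3 and Cxcl15. Ppbp, a platelet chemokine, had 16 control reads and 1 senescent read (log2 ratio -2.92, interval -9.16 to -1.08). Cxcl3, a further CXCR2 ligand, had 57 and 19 reads (-1.31, interval -2.19 to -0.58) and did not pass the threshold. Pf4 and Cxcl15 had fewer than 10 reads. All 5 genes of this cluster with at least 10 reads had log2 ratios of -1.31 or lower. The genes around the cluster did not share this direction. Of 11 other protein-coding genes tested within 500 kb of Cxcl1, Cxcl2 or Cxcl5, 2 were lower and 3 were higher past the threshold. Of all genes tested, 5.60% were lower and 2.71% higher. The median of these 11 genes was 0.02. The 2 lower genes were Alb (albumin) and Afm (afamin), and the 3 higher genes were the EGF receptor ligands Areg, Ereg and Btc.

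A neighbouring cluster of 44.1 kb on chromosome 5 holds Cxcl9, Cxcl10 and Cxcl11, the genes of the interferon-induced CXCR3 ligands. Cxcl11 is annotated as a polymorphic pseudogene, and whether it encodes a protein in this line is not known. Cxcl9 had 44 control and 5 senescent reads (-2.70, interval -4.60 to -1.58) and Cxcl11 had 78 and 22 reads (-1.56, interval -2.35 to -0.90). Both passed the threshold, but the interval of Cxcl10 overlapped those of both. Cxcl11 shares 1582 exonic bases with the pseudogene Gm2673 on the opposite strand, which had 0 reads. On chromosome 11, the stretch of 81.2 kb from Ccl2 to Ccl8 also holds Ccl11 and Ccl12, which had 0 reads in both libraries. Ccl8 had 7 and 6 reads (0.01, interval -1.84 to 1.80). No reads were therefore found for Ccl11 and Ccl12 beside the abundant Ccl2, and no protein-coding gene other than chemokines within 500 kb of Ccl2 or Ccl7 had at least 10 reads.

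**Figure D3:**
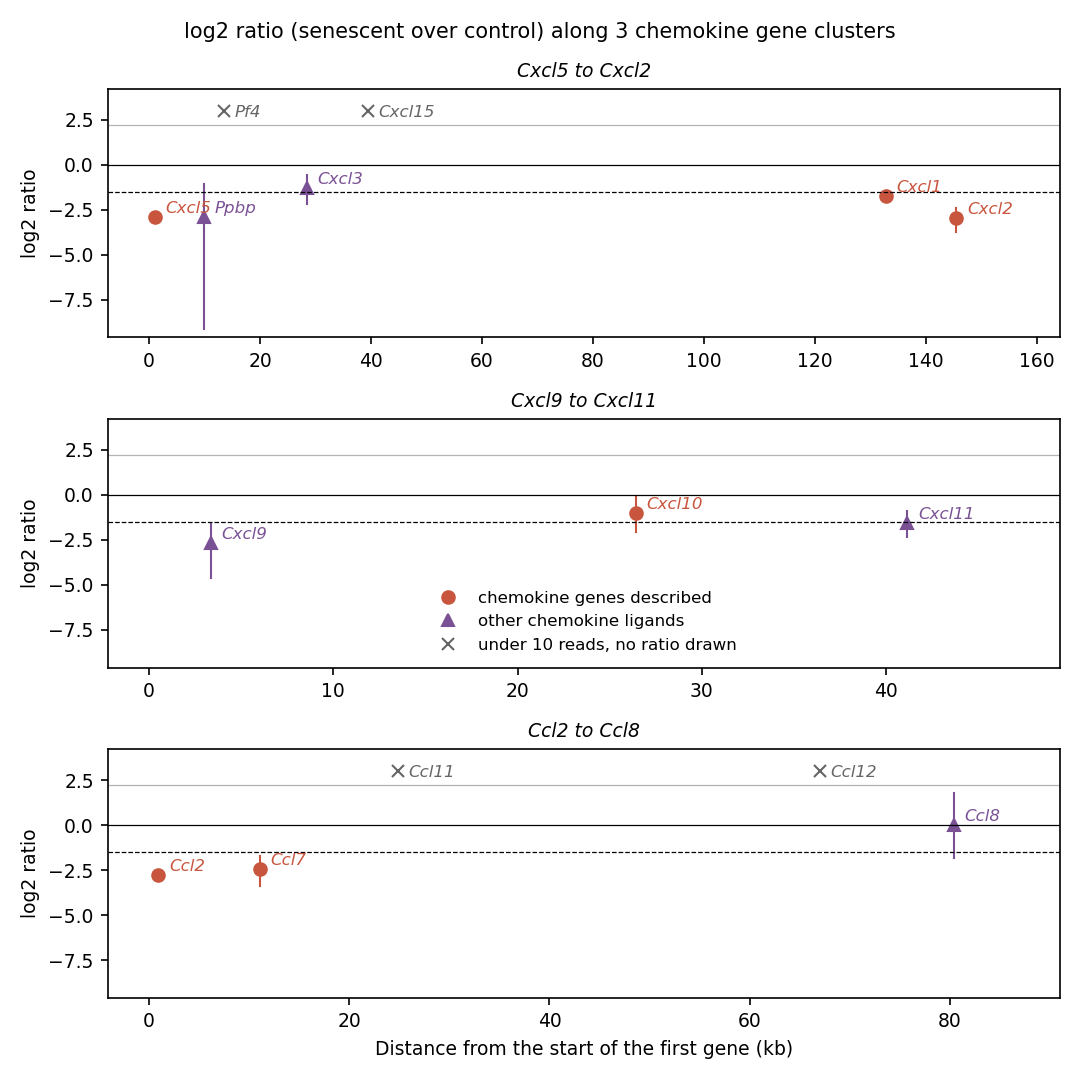
log2 ratio of senescent over control against the distance of each gene's centre from the start of the first gene (kb), for chemokine genes of 3 clusters, with 95% Clopper-Pearson intervals as vertical lines. Genes with fewer than 10 reads are marked by crosses above the grey line with no ratio. In the cluster from Cxcl5 to Cxcl2 the 5 genes with a ratio lie between -2.99 and -1.31.

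The mRNAs of the 10 genes also hold AU-rich pentamers, at differing densities. The pentamer counted was ATTTA in the 3′ UTR, part of the AU-rich elements bound by decay factors such as tristetraprolin (Zfp36). Whether these pentamers are bound was not tested. In the longest protein-coding transcript, Cxcl2 had 11 of them, Ccl20 9, Cxcl1 7, Cxcl5 5, Cxcl12 4, Cxcl10 3, Ccl7 and Cxcl16 2 each, and Ccl2 and Cx3cl1 1 each. All 10 genes thus had at least 1, against 68.7% of 12369 genes tested with a 3′ UTR. The median density was 4.07 per kb of 3′ UTR in the 10 genes and 1.28 per kb in the genes tested. Cx3cl1 (0.53 per kb) and Cxcl12 (0.77) lay below the median of the genes tested, and Cxcl16 (1.41) was close to it. The longer element TTATTTATT was present in Cxcl1, Cxcl2 and Cx3cl1 and in 7.83% of the genes tested. The 3 genes with the lowest log2 ratios, Ccl20, Cxcl2 and Cxcl5, had 9, 11 and 5 pentamers, while Ccl2 with the next lowest ratio had 1 and Cxcl1 with a ratio of -1.74 had 7.

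The other chemokine ligands were looked up in a list of 28 genes. Of these, 10 had no reads and 13 had at least 10 reads. Among the 13, 5 were lower past the threshold, where 5.60% of all genes tested were, and none was higher. Their median was -1.31, against -0.02 for all genes tested. Of the lower genes, Ccl9, a CC ligand of CCR1, had the most reads, with 1173 control and 97 senescent reads (-3.35, interval -3.68 to -3.07). Ccl17, a CCR4 ligand near Cx3cl1 on chromosome 8, had 20 and 4 reads (-1.87, interval -4.10 to -0.51). The others were Ppbp, Cxcl9 and Cxcl11, given above. Cxcl17, a mucosal chemokine, had the most reads of the ligands that did not pass, with 1369 and 974 reads (-0.26, interval -0.38 to -0.14). Per length, Cxcl17 had RPKM values of 61.9 (control) and 51.6 (senescent), above those of Cxcl1 in both libraries. For Cxcl1 the length includes retained introns (1875 bases, against 953 in its longest protein-coding transcript). The order of Cxcl17 and Cxcl1 in the control depends on which length is used. Ccl25, the ligand of CCR9, had 90 and 96 reads (0.32, interval -0.11 to 0.75), but it shares 204 exonic bases with Elavl1 on the opposite strand. Ccl27a, a gene with near-identical copies whose reads may be divided, had 74 and 42 reads (-0.58), Cxcl13 had 17 and 9 (-0.64), Ccl28 had 15 and 4 (-1.48) and Ccl5 had 9 and 6 (-0.31). Ligands with many and with few reads were thus among those lower, while Cxcl17 and Ccl25 did not pass the threshold.

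**Figure D4:**
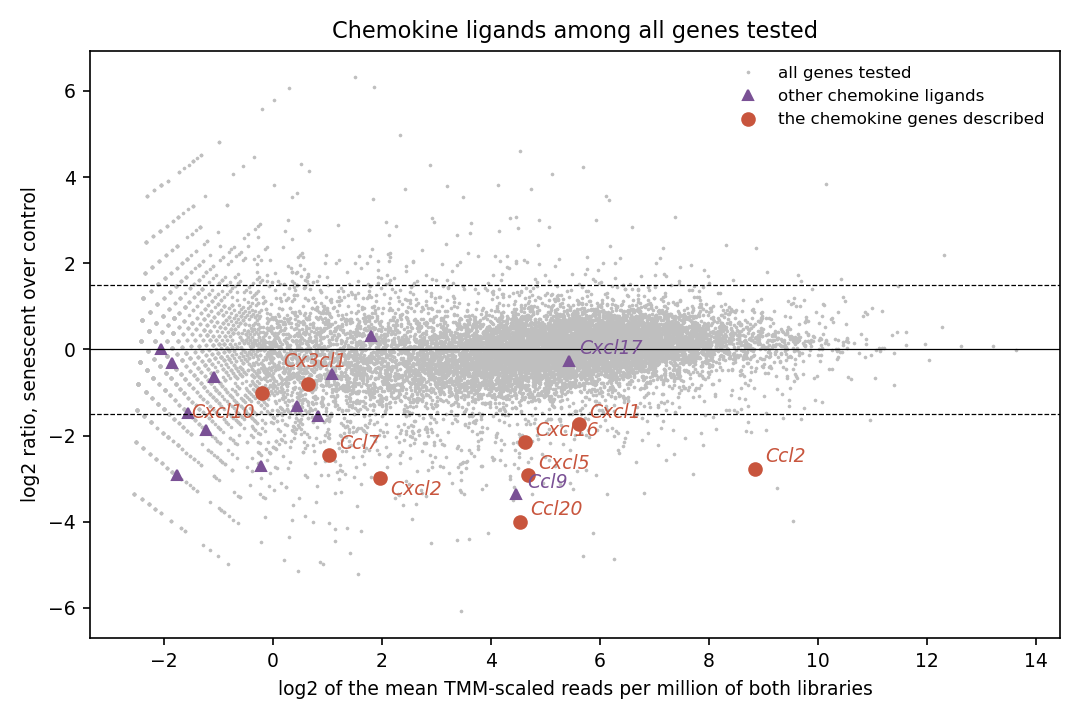
log2 ratio of senescent over control against the log2 of the mean TMM-scaled CPM of both libraries, for all 14383 genes tested (grey), the 9 chemokine genes described (red circles) and 13 other chemokine ligands (purple triangles). Dashed lines mark the threshold of 1.5. Ccl2 lies at -2.77 among the abundant genes, and Ccl9 lies close to Ccl20 and Cxcl5.

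Receptors for these ligands had few reads in the AML12 libraries. Of 23 receptor genes, 14 had no reads in either library, among them Ccr2, Ccr6, Cxcr3, Cxcr4, Cxcr6 and Cx3cr1, the receptors of the ligands above. Only 4 had at least 10 reads, of which 2 were higher past the threshold, where 2.71% of all genes tested were. Ackr3, the atypical receptor that takes up CXCL12, had 46 control and 334 senescent reads, with a ratio of 3.06 on the log2 scale (2.64 to 3.57). Cxcr2, the receptor of CXCL1, CXCL2 and CXCL5, had 1 control read and 11 senescent reads (2.75, interval 0.91 to 9.12). Cxcr2 reached the minimum of 10 reads only through the senescent library, so its call is tied to that filter. Ackr4, a scavenger of CC ligands, had 31 and 14 reads (-0.87, interval -1.94 to 0.04), and Ccr10 had 8 and 2 (-1.41, interval -5.04 to 0.55). The median of the 4 was 0.94, or 0.61 with Cxcr2 and Ccr10 set to their ratio against the floor of 3 reads. Cxcl12, a ligand of Ackr3, had 0 and 7 reads, too few to be tested, so no joint change of receptor and ligand can be read from them.

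Few genes that act on chemokines after their synthesis passed the threshold. In a list of 11 genes for shedding, cleavage and presentation, 9 had at least 10 reads, with a median of -0.18. None was lower and 1 was higher past the threshold, where 5.60% and 2.71% of all genes tested were. The sheddases of Cxcl16 and Cx3cl1 had 6317 and 4752 reads for Adam10 (-0.18, interval -0.24 to -0.13) and 1752 and 810 for Adam17 (-0.88, interval -1.01 to -0.76). Sdc3, a syndecan with 15 and 50 reads, was the higher gene (1.89, interval 1.11 to 2.91), a call lost with a minimum of 100 reads and with a threshold of 2. The more abundant syndecans, whose heparan sulfate chains hold chemokines at the cell surface, went in both directions, with 0.61 for Sdc1 and -1.07 for Sdc4.

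Of 17 genes of NF-κB subunits and feedback, 5 were lower, where 5.60% of all genes tested were, and none was higher past the threshold. Their median was -0.57. Nfkbia, which encodes IκBα, had 3554 control and 748 senescent reads (-2.02, interval -2.13 to -1.90). Tnfaip3, which encodes A20, had 4166 and 940 reads (-1.92, interval -2.02 to -1.82). Birc3 had 1178 and 304 reads (-1.72), Nfkbie 1444 and 404 (-1.61) and Tnip3 20 and 2 (-2.62, interval -6.23 to -1.05). These 5 genes are known as inhibitors or feedback targets of the pathway, but other such genes of the list did not pass, with -1.18 for Bcl3, -0.45 for Nfkbib, -0.12 for Nfkbiz and -0.09 for Tnip1. The subunit genes did not pass the threshold either. Rela had 4422 and 3831 reads (0.02, interval -0.04 to 0.09), Nfkb1 3912 and 2148 (-0.64) and Nfkb2 8871 and 5105 (-0.57). Ikbkg, the regulatory subunit of the IκB kinase, had 4702 and 4194 (0.06).

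Upstream receptors and adaptors were represented by 19 genes, of which 2 were lower, where 5.60% of all genes tested were, and none was higher past the threshold. Their median was -0.29. Il1r1, the signalling receptor of interleukin-1, had 563 control and 66 senescent reads (-2.85, interval -3.25 to -2.49). Tlr2, a receptor of bacterial lipoproteins, had 213 and 32 reads (-2.47, interval -3.09 to -1.96). The receptors Il6st, Ifngr1 and Tnfrsf1a had the most reads and did not pass the threshold, with log2 ratios of -0.89, -0.61 and 0.23. None of the 6 interferon factors passed it, although all 6 lay below 0. Irf1 had 2853 and 984 reads (-1.31, interval -1.41 to -1.20) and Irf3 had 2522 and 2067 (-0.06). None of the 8 factors of chemokine mRNA decay passed it either, with a median of -0.01. Zfp36 had 871 and 876 reads (0.24, interval 0.10 to 0.37), Zfp36l2 14428 and 9316 (-0.40) and Hnrnpd 6241 and 6281 (0.24).

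In a list of 18 other secreted cytokines, 13 had at least 10 reads, of which 2 were lower, where 5.60% of all genes tested were, and none was higher past the threshold. Their median was -0.25. Csf1, the growth factor of macrophages, had 3186 control and 745 senescent reads (-1.87, interval -1.98 to -1.75). Il15 had 20 and 4 reads (-1.87, interval -4.10 to -0.51). Mif had the most reads of the list, with 7086 and 3265 reads (-0.89, interval -0.95 to -0.83), and Tgfb1 had 1135 and 1207 (0.32, interval 0.20 to 0.44). Il33 had 433 and 944 reads (1.35, interval 1.19 to 1.52) and Il34 had 313 and 648 (1.28, interval 1.08 to 1.48), both short of the threshold and past it at a threshold of 1. Il6, Il1a and Il1b had at most 1 read in each library and Tnf had 4 and 0 reads, so that a difference in these inflammatory cytokines was not detectable at this depth.

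**Figure D5:**
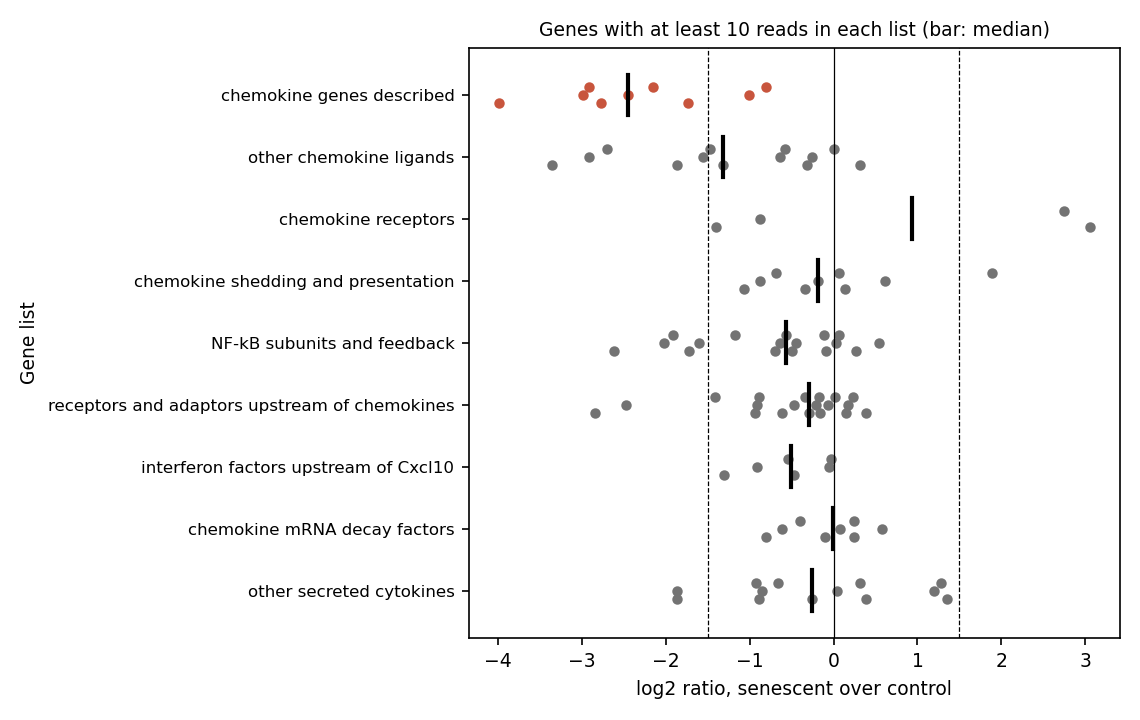
log2 ratio of senescent over control for genes with at least 10 reads in 9 gene lists, 1 point per gene, with a bar at the median of each list. Dashed lines mark the threshold of 1.5. The median of the chemokine genes described is -2.45, that of the other chemokine ligands is -1.31, and those of NF-κB genes, upstream receptors, interferon factors, decay factors and other cytokines lie between -0.57 and -0.01.

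The control library held 28021941 counted reads and the senescent library 25738075. Among 10 hepatocyte markers, Alb fell from 32076 to 2917 reads (-3.23) and none rose past the threshold, and 9 were tested. Of the other 8, Serpina1a (-1.42, 102 and 32 reads), Ttr (-0.91, 23146 and 10486 reads) and Trf (-0.37) lay below 0, while Afp, Hnf4a, Apob, Krt8 and Krt18 lay between 0.02 and 0.82. The libraries also held the biliary markers Krt19, Sox9, Spp1 and Krt7, none of them past the threshold, and Epcam had 0 reads and 1 read. Among 9 macrophage markers, Adgre1, Cd163, Clec4f and Marco had 0 reads in both libraries. Ptprc had 27 control and 76 senescent reads (1.68) and Csf1r had 15 and 40 (1.58), both higher past the threshold, while Cd68 had 34 and 40 (0.45) and Cd14 had 5551 and 1879 (-1.33). The summed level of these 9 markers was 194 and 82.1 CPM, most of it Cd14, and that of the 8 without Cd14 was 2.65 and 6.29 CPM. The 7 endothelial markers each had fewer than 10 reads, summing to 0.206 and 0.564 CPM. The 9 stellate and fibroblast markers summed to 1.03 and 1.05, with Col1a2 and Acta2 at 0. Only 2 of these 9 had at least 10 reads. Of them, 1 was lower (-3.29) and 1 higher (2.28) past the threshold, where 5.60% and 2.71% of all genes tested were. The 7 neutrophil and T cell markers summed to 0.241 and 0.847, with S100a8 higher at 2 and 12 reads and Ly6g, Cd3g, Cd4 and Cd8a at 0. Among 8 genes of senescence and proliferation none passed the threshold. Cdkn1a, which encodes p21, had a log2 ratio of 0.90, and Cdkn2a of -1.32. The proliferation markers went in both directions, with -0.79 for Mki67, 0.18 for Top2a and 0.09 for Ccnb1. What part these genes have in the chemokine ratios was not tested.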

How the data were processed

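RNAseq was performed on poly(A) RNA of AML12 cells, with 1 library per condition from 3 pooled samples. The authors deposited raw read counts per Ensembl gene. The labels name CASAVA, STAR, DESeq2 and edgeR as tools and mm10 as the build. The counting tool, the annotation and the use of strand are not given in the sources used here. The columns, marked O and Y, were matched to the titles Old and Young by their initials.

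Symbols, positions and exon lengths were taken from GENCODE M21 (GRCm38, the same assembly as mm10), which gave a symbol to 34490 of 35275 genes. Counts were scaled by TMM (factors 1.04 and 0.964) with edgeR 4.0.16 in R 4.3.3. Log2 ratios with a prior count of 1 and 95% Clopper-Pearson intervals were computed in Python 3.11.15 with scipy 1.17.1. Exact Poisson intervals were used for levels, 3 reads as the floor of a count of 0, and blastn 2.17.0 for stretches shared between genes (at least 50 bases at 95% identity). The exon length of a gene is the union of its annotated exons, retained introns included. The quasi-likelihood test of edgeR and the test of DESeq2 could not be used with 1 library per condition. The method was tested on simulated data, in which the intervals were widened by the same variation between replicates as was simulated. That test does not show how calls with counting error only fare where replicates vary.

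The 10 genes, the lists and the thresholds were chosen with earlier results of these data known. Named genes were the 10 genes, other ligands and receptors with at least 10 reads, genes of the same genomic clusters, and of other lists up to 4 genes past the threshold with the largest change and up to 2 others with the most reads. Further genes named for their role or as markers were chosen after their values were seen. Protein sequences were not analysed here. The alternatives were other scalings, filters, prior counts, thresholds and wider intervals.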

Additional observations from a re-analysis of the deposited data

How the results depend on the processing

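The count of 7 lower chemokine genes was 6 with a threshold of 2, where Cxcl1 dropped out, and 8 with a threshold of 1, where Cxcl10 came in. Under the other alternatives (scaling by upper quartile, by DESeq2 size factors or by total count, a minimum of 1 or 100 reads, a smaller or a larger prior count, and an assumed coefficient of variation between replicates of 0.1 or 0.4) the same 7 genes were counted. Total-count scaling moved the log2 ratio of the summed level from -2.66 to -2.77 and the median of all genes tested by -0.11. With at least 1 read, 1 chemokine gene, Cxcl12, was counted as higher. Over all genes, 805 were lower and 390 higher. These were 395 and 141 with at least 100 reads, 1435 and 732 with a threshold of 1, and 460 and 219 with a threshold of 2. A prior count of 5 left 259 higher genes. The 5 lower genes among other ligands were 2 with at least 100 reads and 3 with a prior count of 5, with a threshold of 2 or with a coefficient of variation of 0.4. The 5 lower NF-κB genes were 2 with a threshold of 2. The 2 lower cytokines were 1 under the same alternatives but 0 with a threshold of 2, and the 2 higher receptors were 1, Ackr3, with at least 100 reads. Sdc3, the 1 higher gene of shedding and presentation, was not counted with at least 100 reads or a threshold of 2. A threshold of 1 gave 2 higher cytokines (Il33 and Il34). It also gave 1 lower interferon factor (Irf1) and 1 lower gene of shedding and presentation (Sdc4). At that threshold 6 NF-κB genes, 3 upstream receptors and adaptors and 7 other ligands were lower. Fewer genes pass a stricter threshold or filter by construction. For Cxcl10, Cx3cl1 and Cxcl12, depth limits what can be seen. With a coefficient of variation of 0.4, the intervals of Cxcl10 (-2.94 to 0.80) and Cx3cl1 (-2.57 to 0.91) included 0. No paired analysis was possible because each group has 1 library.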
